A study of Mus musculus with 6 samples.

Results

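The purinergic receptors and the ectonucleotidase of bone-marrow-derived macrophages (BMDMs) were examined as 9 genes chosen by their symbols. They were the ATP-gated channel genes *P2rx4* and *P2rx7*, the nucleotide receptor genes *P2ry2*, *P2ry6* and *P2ry12*, the adenosine receptor genes *Adora2a*, *Adora2b* and *Adora3*, and *Entpd1*, which encodes the ATP-degrading ectoenzyme CD39. All 9 were found once in the authors' annotated table and were among its 15903 genes, each of which had 10 or more counts summed over the libraries. BMDMs are macrophages grown from bone marrow with the growth factor M-CSF. Here the marrow came from 3 Cx3cr1GFP mice on a C57BL/6J background, which carry GFP in the *Cx3cr1* gene, and this allele was shared by both groups. Cells of every mouse were cultured for 7 days with 10 ng/ml M-CSF and then left unstimulated (control, n = 3) or given 62 mM excess NaCl for 24 h (NaCl, n = 3). Only adherent cells were sequenced. The age and sex of the mice are not given in the sources used here, and no osmolarity control is among the 6 libraries, so added sodium chloride and added osmolarity cannot be told apart.

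ATP and other nucleotides leave stressed or dying cells and act as danger and attraction signals on neighbouring macrophages. P2X receptors are cation channels opened by ATP, and the channel encoded by *P2rx7* needs high ATP and is a classical trigger of the NLRP3 inflammasome. P2Y receptors are G protein-coupled receptors for ATP, ADP, UTP or UDP. CD39 on the cell surface removes phosphates from ATP and ADP to give AMP, the ectoenzyme CD73 (*Nt5e*) turns AMP into adenosine, and adenosine receptors then dampen or reshape macrophage activation through cAMP. A macrophage therefore both reads extracellular ATP and helps to clear it.

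The libraries held between 4088065 (NaCl replicate 3) and 20123570 (control replicate 3) counts on genes. Expression is given as CPM, the count scaled to library size after TMM normalization, and log2 fold changes are NaCl over control. They come from edgeR's quasi-likelihood test, in which each NaCl library was compared with the control of its own mouse (replicate block). Adjusted p-values are Benjamini-Hochberg values over all 15903 genes, and 0.05 was the threshold. The macrophage identity of the cells was visible in the macrophage markers *Csf1r*, *Adgre1* and *Cd68*, whose lowest library values were 1969, 1263 and 1196 CPM. The minimum count was reached by 0 of 5 T cell and 0 of 6 erythroid markers. It was reached by all 10 neutrophil, all 5 eosinophil and all 7 dendritic cell markers. The neutrophil markers summed to 268 to 564 CPM in control libraries. The eosinophil markers summed to 47.8 to 53.3 CPM in mouse 1 and 65.2 to 94.1 CPM in mice 2 and 3. RNA of other cell types was therefore not excluded. The libraries of mouse 1 stood apart from the other 4 in several of the genes described below, so values without this mouse are given where a result rests on them.

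Excess NaCl was accompanied by a fall of *Entpd1* transcript in every mouse, to 0.487 times its control level in the fit, whereas 0 of the 8 receptor genes passed the test. Of the 9 genes, 1 was lower past the threshold and 0 were higher, against 8.90% of all genes tested in either direction, 4.30% lower and 4.60% higher. An unadjusted p-value under 0.05 was found for 3 of the 9 genes (*Entpd1*, *Adora2b* and *Adora3*), against 22.1% of all genes. The direction was shared by 3 of 3 mice for 2 of the 9, *Entpd1* and *Adora2b*, against 43.5% of all genes. The CPM ranges of the groups overlapped for each of the 9 genes, while 19.0% of all genes had ranges apart. The median log2 fold change was 0.13 over the 9 genes and -0.02 over all genes tested. Without the mouse in the fit, 0 of the 9 genes passed the threshold in edgeR, against 0.654% of all genes (0.176% lower and 0.478% higher), and 0 of the 9 in DESeq2, against 2.52% (0.975% lower and 1.54% higher). With the mouse, DESeq2 called 1 of the 9 lower and 0 higher, against 5.07% of all genes (2.23% lower and 2.84% higher).

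**Figure D1:**
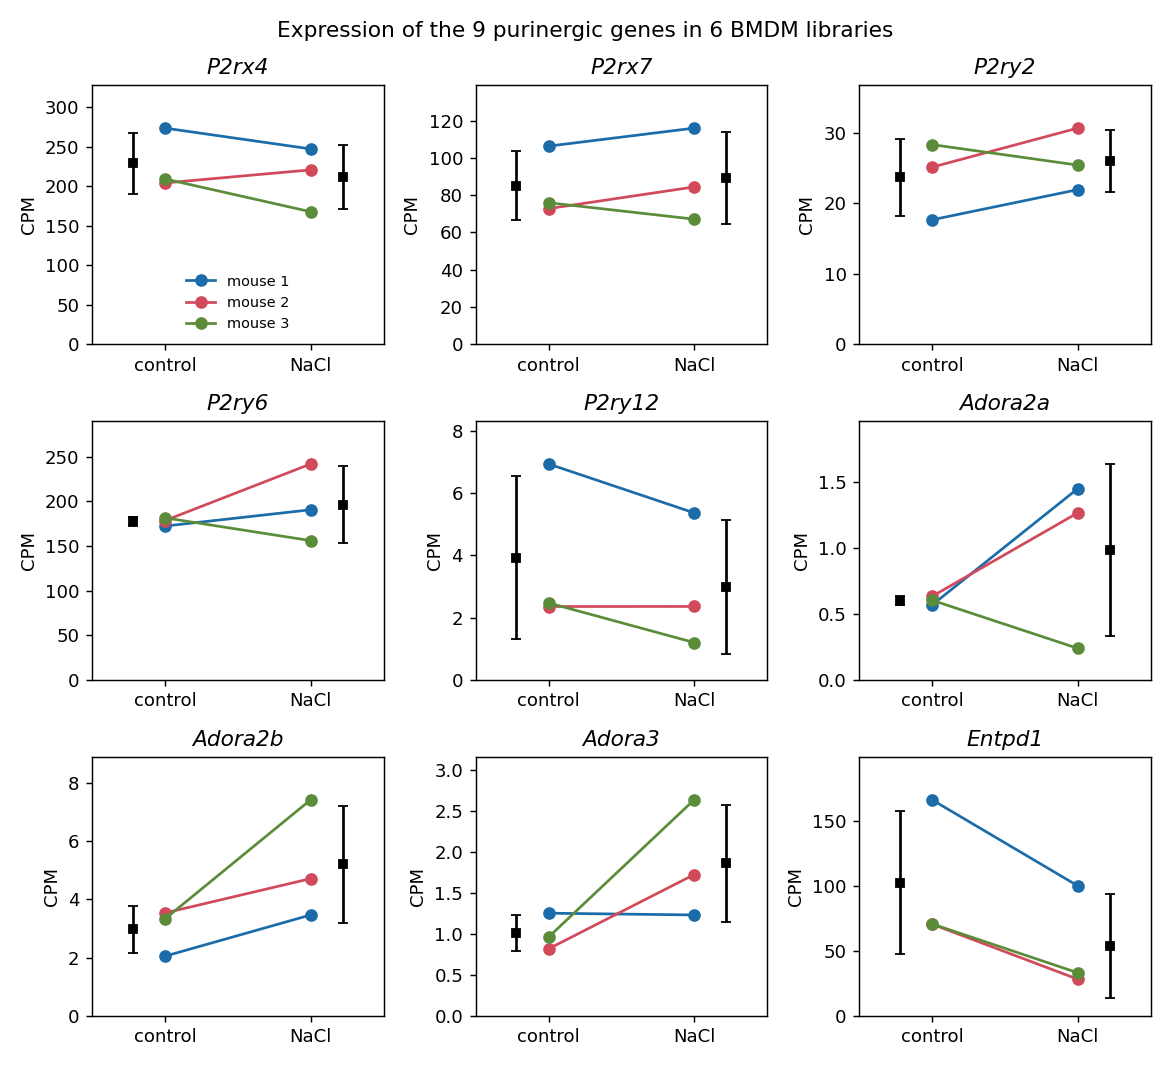
CPM (y axis, linear from 0) of the 9 genes in control and NaCl libraries, with a coloured line joining the 2 libraries of each mouse and black squares with bars for mean ± SD of 3 libraries. The *Entpd1* lines all fall, from 166 to 100.02 CPM in mouse 1, and the *Adora2b* lines all rise, while lines of the other 7 genes do not all point the same way.

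*Entpd1* (ENSMUSG00000048120.17, chromosome 19) was the member whose transcript fell. Control libraries of mice 1, 2 and 3 held 166, 70.5 and 70.7 CPM, and the NaCl libraries of the same mice held 100.02, 28.1 and 33.1 CPM. Mouse 1 was thus high in both conditions, and its NaCl library lay above the control libraries of mice 2 and 3, which is why the groups overlap although each pair falls. The group means were 102 ± 55.2 CPM in control and 53.7 ± 40.2 CPM in NaCl (SD, n = 3 each). Within mice 1, 2 and 3 the log2 ratio of NaCl to control was -0.73, -1.32 and -1.09. The fitted log2 fold change was -1.04 (standard error, SE = 0.13, 95% interval -1.31 to -0.77, adjusted p = 5.0e-06 in edgeR's test with the replicate block), a level 2.05-fold higher in control. Among the 684 genes lower past the threshold, 111 had a more negative log2 fold change.

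The call of *Entpd1* rested on comparing libraries of the same mouse. Without the block the log2 fold change was -0.92 (SE = 0.48) and the adjusted p was 0.473 in edgeR and 0.674 in DESeq2. With the block it passed in DESeq2 (adjusted p = 4.5e-08) and limma-voom (adjusted p = 2.4e-04) as well. Without mouse 1 the log2 fold change was -1.21 (adjusted p = 2.8e-07), without mouse 2 it was -0.87 and without mouse 3 it was -1.01, each past the threshold with the block. edgeR's test shares variance over genes, with 26.3 degrees of freedom in the main fit on 6 libraries. A small p-value therefore does not stand for many mice. No exonic base of *Entpd1* in GENCODE M21 overlaps another gene (0%), and 0% of its 75-base windows occur in transcripts of another gene. In bulk RNA, fewer cells of a type and less RNA per cell cannot be told apart.

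RefSeq gives *Entpd1* a pair of start sites, and the 300 bases around each (250 before and 50 after the start) are shown because this is the gene whose RNA changed. Both windows lie on the plus strand of GRCm38.p6, at chr19:40612116-40612415 for the first and chr19:40659520-40659819 for the second. Capitals mark the core of the cAMP response element (TGACG, searched on both strands), which in both windows lies on the minus strand and so reads as its reverse complement.
Entpd1 start 1: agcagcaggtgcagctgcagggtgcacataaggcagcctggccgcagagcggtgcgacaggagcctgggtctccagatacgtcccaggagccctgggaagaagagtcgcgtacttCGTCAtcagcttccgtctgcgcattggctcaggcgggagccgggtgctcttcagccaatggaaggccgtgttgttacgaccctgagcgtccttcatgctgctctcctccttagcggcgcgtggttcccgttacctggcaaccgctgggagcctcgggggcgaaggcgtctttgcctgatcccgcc
Entpd1 start 2: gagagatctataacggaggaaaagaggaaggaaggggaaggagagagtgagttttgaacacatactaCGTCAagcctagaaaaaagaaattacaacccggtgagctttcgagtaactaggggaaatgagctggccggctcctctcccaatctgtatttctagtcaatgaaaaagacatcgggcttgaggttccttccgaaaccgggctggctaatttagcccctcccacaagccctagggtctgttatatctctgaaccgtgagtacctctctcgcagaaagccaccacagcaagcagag
The match begins 135 bases before the first start and 183 bases before the second, and 20.8% of 32851 mouse promoter windows of the same length hold these letters on either strand. The full element TGACGTCA, which contains the core, is in neither window and in 1.79% of all windows. The core letters bound by the osmotic regulator NFAT5, TGGAAA, are also in neither window, against 21.4% of all windows. Also searched, and in neither window, were TGANTCA (AP-1), ACGTG (HRE core) and GGGCGG (GC box), against 7.81%, 19.6% and 35.7% of all windows. The core TGACG is not particular to *Entpd1*. It also lies 178 and 57 bases before the start of *P2rx4*, a gene that did not pass the test. The first window is rich in G and C (64.0%) and the second is not (48.7%), where the median over all windows was 52.7%. Counts per gene do not tell which start was used.

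The ATP-gated channel genes were abundant, and neither passed the test. *P2rx4* (chromosome 5), a channel of the plasma membrane and lysosomes, held 273, 204 and 209 CPM in the control libraries of mice 1, 2 and 3 and 247, 220 and 167 CPM in the NaCl libraries. It was lower in 2 mice and higher in 1, with a log2 fold change of -0.12 (SE = 0.12, 95% interval -0.36 to 0.13, adjusted p = 0.641). *P2rx7* (chromosome 5) held 106, 72.7 and 75.9 CPM in control and 116, 84.4 and 67.1 CPM in NaCl. It was higher in 2 mice and lower in 1, with a log2 fold change of 0.06 (SE = 0.12, 95% interval -0.19 to 0.31, adjusted p = 0.840). The intervals leave room for changes of up to 1.24-fold higher for *P2rx7* and down to 0.779 times the control level for *P2rx4*. Like every 95% interval given here, they use the variance shared over genes (26.3 degrees of freedom), not the spread of 3 mice alone. A narrow interval therefore does not stand for many mice. The within-mouse log2 ratios of mice 1, 2 and 3 were 0.13, 0.21 and -0.18 for *P2rx7* and -0.15, 0.11 and -0.32 for *P2rx4*. For both genes the fitted differences of mice 2 and 3 from mouse 1 (-0.29 and -0.47 on the log2 scale for *P2rx4*, -0.50 and -0.62 for *P2rx7*) were larger in size than the log2 fold change with NaCl.

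Among the P2Y receptors, *P2ry6* (chromosome 7), the UDP receptor that promotes phagocytosis in microglia, held 172, 178 and 181 CPM in control and 191, 242 and 156 CPM in NaCl for mice 1, 2 and 3. The control libraries lay close together and the NaCl libraries on both sides of them. The log2 fold change was 0.13 (SE = 0.13, 95% interval -0.13 to 0.39, adjusted p = 0.627). *P2ry2* (chromosome 7), the ATP and UTP receptor by which phagocytes find dying cells, held 17.6, 25.1 and 28.3 CPM in control and 21.9, 30.6 and 25.4 CPM in NaCl. It was higher in mice 1 and 2 and lower in mouse 3, with a log2 fold change of 0.15 (SE = 0.14, 95% interval -0.14 to 0.45, adjusted p = 0.595). *P2ry12* (chromosome 3), an ADP receptor best known from platelets and microglia, was scarce, with 61, 26 and 49 counts in control and 48, 26 and 5 counts in NaCl. In CPM these were 6.94, 2.36 and 2.47 in control and 5.36, 2.36 and 1.20 in NaCl. Mouse 1 was again the highest in both conditions. The log2 fold change of *P2ry12* was -0.36 (SE = 0.27, 95% interval -0.92 to 0.20, adjusted p = 0.489).

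The adenosine receptors were scarce, and the fitted change of each was above 0 without passing the threshold. *Adora2b* (chromosome 11), which raises cAMP and responds to high adenosine, held 2.05, 3.53 and 3.33 CPM in control and 3.46, 4.71 and 7.43 CPM in NaCl for mice 1, 2 and 3. These values rested on 18, 39 and 66 counts in control and 31, 52 and 31 counts in NaCl. *Adora2b* was higher in NaCl in 3 of 3 mice, with log2 ratios of 0.71, 0.40 and 1.11. The groups overlapped only because the NaCl library of mouse 1 lay just under the control library of mouse 2. The log2 fold change was 0.77 (SE = 0.25, 95% interval 0.25 to 1.29, unadjusted p = 0.0052 and adjusted p = 0.0553 in edgeR's test with the block). It passed the threshold without mouse 2 (log2 fold change 1.01, adjusted p = 0.0197) and did not without mouse 1 (adjusted p = 0.135) or mouse 3 (adjusted p = 0.348).

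*Adora3* (chromosome 3), which lowers cAMP and is prominent in mast cells, had 11, 9 and 19 counts in control and 11, 19 and 11 counts in NaCl. Scaled to depth these were 1.25, 0.815 and 0.958 CPM in control and 1.23, 1.72 and 2.64 CPM in NaCl, so mice 2 and 3 were higher in NaCl and mouse 1 was level. Its log2 fold change was 0.87 (SE = 0.42, 95% interval 0.00414 to 1.73, adjusted p = 0.223). Of its exonic bases 20.9% overlap *Tmigd3* on the same strand, so its count is uncertain. The 5 mast cell markers tested summed to 6.14 to 10.8 CPM in control and 9.50 to 14.1 CPM in NaCl, 0 of the 5 passed the threshold, and *Fcer1a*, *Tpsb2*, *Mcpt4* and *Cma1* were under the minimum count. The log2 fold changes of these markers differed in direction, -0.37 for *Kit* and -0.01 for *Ms4a2* against 0.51 for *Cpa3*, 0.74 for *Hdc* and 0.50 for *Gata2*. The part of mast cells in the *Adora3* values was not tested. *Adora2a* (chromosome 10), the other receptor that raises cAMP, had 5, 7 and 12 counts in control and 13, 14 and 1 counts in NaCl. It was higher in mice 1 and 2 and lower in mouse 3, whose NaCl library was the shallowest. With a 95% interval of the log2 fold change from -0.40 to 1.81, a change of *Adora2a* was not detectable at this depth.

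**Figure D2:**
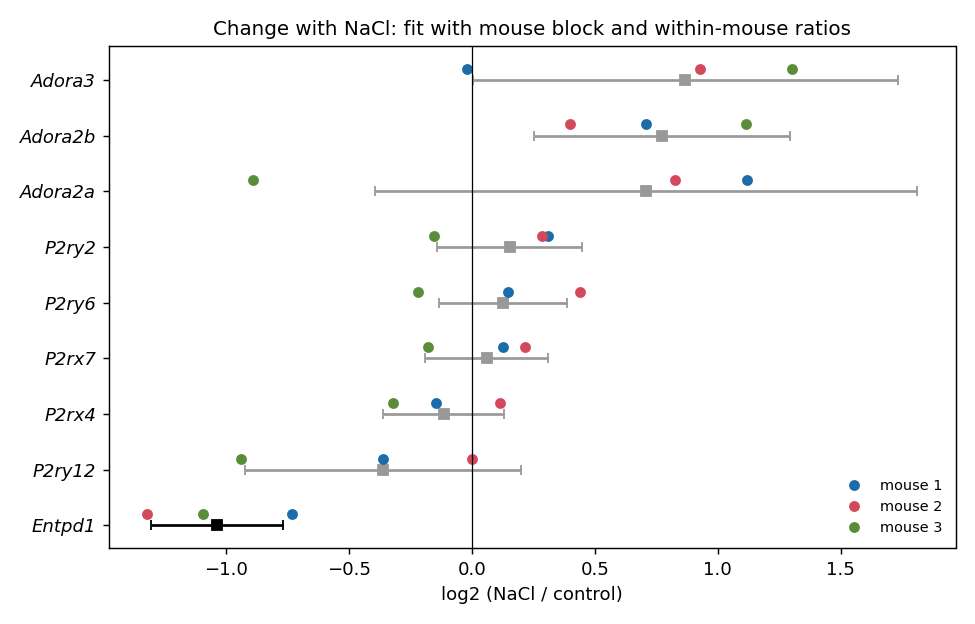
Log2 ratio of NaCl to control (x axis) for the 9 genes, with squares and bars for the edgeR fit with the mouse block and its 95% interval (black where the adjusted p was under 0.05, grey otherwise) and coloured points for the ratio within each mouse. *Entpd1* sits at -1.04 with 3 mice below 0, and the interval of *Adora2b* runs from 0.25 to 1.29 while its adjusted p was 0.0553.

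Levels between genes were compared per length, as CPM per kb of exon from GENCODE M21. In control cells the order from high to low was *P2ry6* (61.4 ± 1.62 CPM per kb), *P2rx4* (32.6 ± 5.51), *Entpd1* (18.4 ± 9.90), *P2rx7* (14.2 ± 3.10), *P2ry2* (6.03 ± 1.39), *Adora2b* (1.61 ± 0.437), *P2ry12* (1.54 ± 1.03), *Adora3* (0.270 ± 0.0595) and *Adora2a* (0.197 ± 0.0107), each mean ± SD of 3 libraries. The ranges of neighbours overlapped for *P2rx4* and *Entpd1*, for *Entpd1* and *P2rx7*, and for *Adora2b* and *P2ry12*. Within libraries, *P2rx4* was nevertheless above *Entpd1* in 3 of 3, while *Entpd1* was above *P2rx7* and *Adora2b* above *P2ry12* in 2 of 3 each, so the order of these last 4 genes within their pairs did not hold in every library. The UDP receptor gene *P2ry6* was thus the most abundant transcript per length, and the adenosine receptor genes lay at the low end with *P2ry12*. The length was that of all annotated exons of a gene merged, 7.025 kb over 9 transcripts for *P2rx4* and 2.887 kb over 3 for *P2ry6*. Before division by length, *P2rx4* was the higher in control (229 ± 38.7 against 177 ± 4.68 CPM). The first place of *P2ry6* therefore depended on the length used. In NaCl the order of the means differed in 1 place. *Entpd1*, at 9.63 ± 7.20 CPM per kb, stood below *P2rx7* at 14.9 ± 4.16 CPM per kb in 3 of 3 NaCl libraries, whereas in control it stood above *P2rx7* in 2 of 3. Its range in NaCl, from 5.04 to 17.9 CPM per kb, overlapped those of *P2rx7* and *P2ry2*. Although its NaCl mean was above that of *P2ry2*, *Entpd1* was above *P2ry2* in 1 of 3 NaCl libraries. In control its lowest value (12.6 CPM per kb) was above the highest of *P2ry2* (7.21 CPM per kb). These changes of order were not tested as such.

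**Figure D3:**
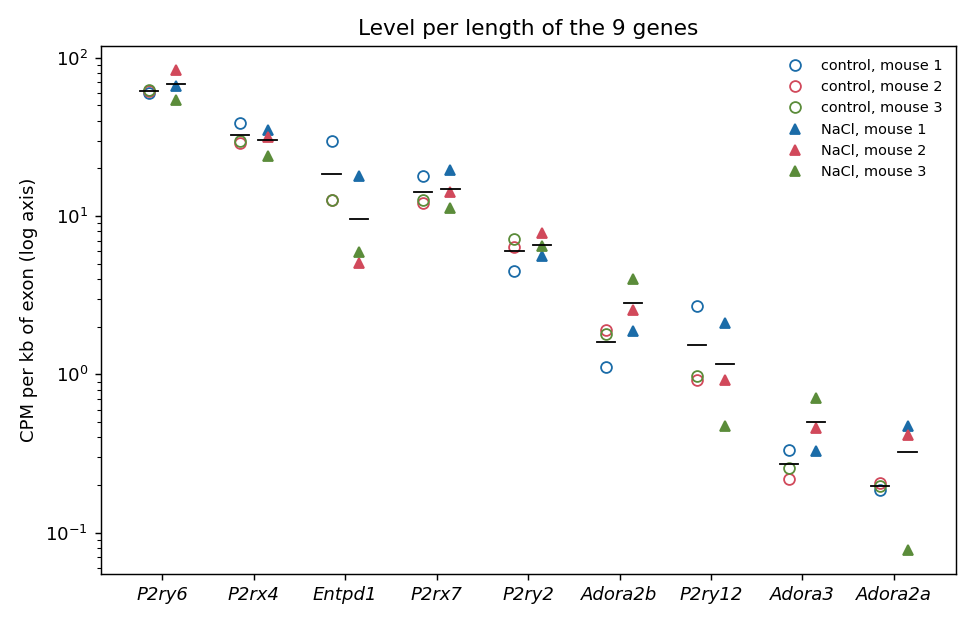
CPM per kb of exon (log axis) of the 9 genes in each library, ordered by the control mean, with open circles for control, filled triangles for NaCl, colours for mice and short lines for means of 3 libraries. *P2ry6* lies highest (61.4 in control) and *Adora2a* lowest (0.197 in control).

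The mice differed in several of these genes irrespective of salt. This was examined after the values had been seen, with edgeR's test of the mouse term beside the treatment. It passed the threshold for 3 of the 9 genes, against 8.89% of all genes tested, and these were *Entpd1* (adjusted p = 5.5e-08), *P2ry12* (adjusted p = 0.00127) and *P2rx7* (adjusted p = 0.0108). *Entpd1* in mice 2 and 3 was below mouse 1 by log2 differences of -1.52 and -1.41, each larger in size than its log2 fold change with NaCl. *P2ry12* differed from mouse 1 by -1.37 and -1.60, and *P2rx7* by -0.50 and -0.62. For 4 of the 9 genes, these and *P2rx4*, both libraries of mouse 1 lay above the other 4, against 13.8% of all genes. *Adora2b* and *P2ry2* were lowest in mouse 1 within each condition, without passing the mouse term (adjusted p = 0.199 and 0.111). Of the B cell markers that reached the minimum count, *Cd79b* held 9.55 to 10.1 CPM in mouse 1 and 2.81 to 5.44 CPM in the other 4 libraries. *Cd79a* held 0.114 to 0.335 CPM in mouse 1 and 0.0906 to 0.544 CPM in the other 4, so it did not share this difference. *Ms4a1*, *Ebf1* and *Pax5* were under the minimum. The 10 neutrophil markers summed to 268 to 290.3 CPM in mouse 1 and 316 to 564 CPM in the others. *S100a9*, *Ngp* and *Ltf* were lower in mouse 1 than in each of the others. *Mpo* (11.2 to 12.6 CPM in mouse 1, 4.90 to 11.7 CPM in the others) and *Elane* (2.39 to 3.13 against 0.479 to 2.54 CPM) were not. For *P2ry12*, which platelets also carry, the 5 megakaryocyte and platelet markers tested summed to 129 to 142 CPM in mouse 1 and 96.8 to 147 CPM in the others, with *Gp9*, *Gp1bb* and *Gp6* under the minimum. Most of this sum was *Vwf*, with 120 to 135 CPM in mouse 1 and 93.7 to 141 CPM in the others. *Ppbp* held 1.68 to 1.93 CPM in mouse 1 and 0.240 to 1.27 CPM in the others. The mouse 1 values of *Itga2b* (2.27 to 3.24 CPM), *Gp1ba* (2.62 to 4.13 CPM) and *Gp5* (0.224 to 0.341 CPM) overlapped those of the others. The part of other cell types in the mouse differences was not tested. Each mouse is 1 animal and 1 culture per condition, so the animal and its culture cannot be told apart.

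The wider pathway was read from lists of 76 further genes, of which 57 were tested. Of these 57 genes 7 were lower and 1 was higher past the threshold, beside 4.30% lower and 4.60% higher of all genes, and their median log2 fold change was -0.15 against -0.02. Without the block 0 of the 57 passed in edgeR, against 0.654% of all genes. In DESeq2 without the block 1 passed, against 2.52% of all genes, and this was *Gnai3* (log2 fold change -0.48, adjusted p = 0.0238). When each mouse was left out in turn, *Enpp1* passed in 3 of 3 fits. *Gja1* and *Gnai3* passed in 2 of 3, *Gja1* not without mouse 2 (adjusted p = 0.143) and *Gnai3* not without mouse 1 (adjusted p = 0.0812). *Bst1* and *Slc29a3* passed only without mouse 2 and *Cd38* and *P2rx6* only without mouse 1, while *Nek7* passed in 0 of 3 (adjusted p from 0.0553 to 0.197). After thinning, *Cd38* (adjusted p = 0.396) and *Gja1* (adjusted p = 0.173) did not pass. In DESeq2 with the block *Enpp1* (adjusted p = 0.0130) and *Gnai3* (adjusted p = 0.00768) passed. *Bst1* (adjusted p = 0.168), *Gja1* (adjusted p = 0.152) and *Slc29a3* (adjusted p = 0.0860) did not. The call was lost in 11 of 19 alternatives for *Bst1* and *Gja1*, 12 of 19 for *Slc29a3* and 12 of 18 for *Cd38*. Among 12 other ectoenzymes that act on nucleotides 6 were tested, and 3 of the 6 fell. *Enpp1*, which splits ATP into AMP and pyrophosphate, held 23.0, 43.5 and 36.1 CPM in control and 18.3, 23.8 and 19.9 CPM in NaCl for mice 1, 2 and 3. Each pair fell, for a log2 fold change of -0.69 (SE = 0.15, adjusted p = 0.00221). *Cd38*, an ectoenzyme that consumes NAD, fell from 1.77 ± 0.205 to 0.579 ± 0.279 CPM (log2 fold change -1.62, adjusted p = 0.0294), on 2 to 34 counts per library. Its relative *Bst1* fell from 12.1 ± 0.360 to 7.78 ± 0.577 CPM (log2 fold change -0.63, adjusted p = 0.0245).

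*Nt5e*, whose product CD73 completes the path from ATP to adenosine, was scarce, with 1.15 ± 0.839 CPM in control cells, 0.730 ± 0.408 CPM after NaCl and an adjusted p of 0.520. The genes of the other cell-surface ENTPD enzymes were hardly counted, with 3 counts of *Entpd2*, 1 of *Entpd3* and 1 of *Entpd8* over all 6 libraries. Of these 4 genes *Entpd1* alone reached the minimum count. *Enpp2* had 5 counts, *Enpp3* had 1 and *Alpl* had 0. *Entpd5*, *Entpd6* and *Entpd7*, whose products act mainly inside the cell or are released from it, had log2 fold changes from 0.06 to 0.35, and 0 of the 3 passed, while *Entpd4* and *Entpd4b* had 0 counts.

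Of the further receptors, *P2rx6*, a P2X subunit, was the gene that rose, on 3, 4 and 5 counts in control and 9, 18 and 6 counts in NaCl. Its log2 fold change was 2.08 (SE = 0.57, adjusted p = 0.0183), and the call was lost without mouse 2 (adjusted p = 0.0910) and without mouse 3 (adjusted p = 0.0612). After thinning all libraries to the smallest total its log2 fold change was 1.28 (adjusted p = 0.345). The other 3 P2X genes tested and the 5 P2Y genes tested had log2 fold changes from -0.68 for *P2ry13* to 0.13 for *P2ry1*, and 0 of the 8 passed. *P2rx2* had 3 counts, and *P2ry4* and *Adora1* had 0. *P2ry14*, a receptor for UDP-sugars on chromosome 3 like *P2ry12*, held 10.3 and 11.3 CPM in the control and NaCl libraries of mouse 1 and from 1.44 to 3.90 CPM in the other 4, a difference between mice past the threshold (adjusted p = 2.0e-06). *P2ry1*, *P2ry13* and *Adora3*, also on chromosome 3, did not pass edgeR's test of the mouse term (adjusted p = 0.957, 0.0682 and 0.900).

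For uptake and breakdown of adenosine 9 of 12 genes were tested, and 1 fell, where 4.30% of all genes did. This was *Slc29a3*, a nucleoside transporter of lysosomes, which went from 81.5 ± 14.1 to 62.0 ± 12.3 CPM (log2 fold change -0.40, adjusted p = 0.0315). The nucleoside transporters *Slc28a2* and *Slc29a1* had adjusted p-values of 0.0514 and 0.509, and the adenosine-degrading enzyme gene *Ada* had one of 0.732. *Slc28a1* had 2 counts, and *Slc28a3* and *Slc29a4* had 0. Of 10 genes of ATP release 5 were tested and 1 fell, beside the same 4.30% of all genes. *Gja1*, a connexin whose hemichannels can pass ATP, fell from 3.66 ± 1.18 to 1.51 ± 0.0677 CPM (log2 fold change -1.25, adjusted p = 0.0110). The ATP channel gene *Panx1* held 33.1 ± 4.70 CPM in control cells and 26.0 ± 2.41 CPM after NaCl (log2 fold change -0.35, adjusted p = 0.110). *Panx2* had 3 counts, *Calhm1* had 1, and *Panx3*, *Gjb2* and *Gjb6* had 0.

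Downstream of the receptors the counts below stand beside 8.90% of all genes past the threshold in either direction, 4.30% lower. Of 7 genes of the P2X7 inflammasome path 1 fell, *Nek7*, an NLRP3 partner, from 166 ± 6.58 to 128 ± 21.8 CPM (log2 fold change -0.38, adjusted p = 0.0463). The call of *Nek7* was lost in 17 of 19 alternatives, among them limma-voom (adjusted p = 0.0525) and DESeq2 (adjusted p = 0.0963) with the block on all libraries. *Nlrp3* itself was at 72.2 ± 4.43 and 58.0 ± 5.14 CPM, with an adjusted p of 0.0973. Of 6 G protein genes 1 fell, *Gnai3*, an inhibitory alpha subunit, from 188 ± 8.14 to 134 ± 9.91 CPM (log2 fold change -0.50, adjusted p = 0.00677). Of 12 cAMP effector genes 0 passed, with log2 fold changes from -0.52 to 0.55.

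**Figure D4:**
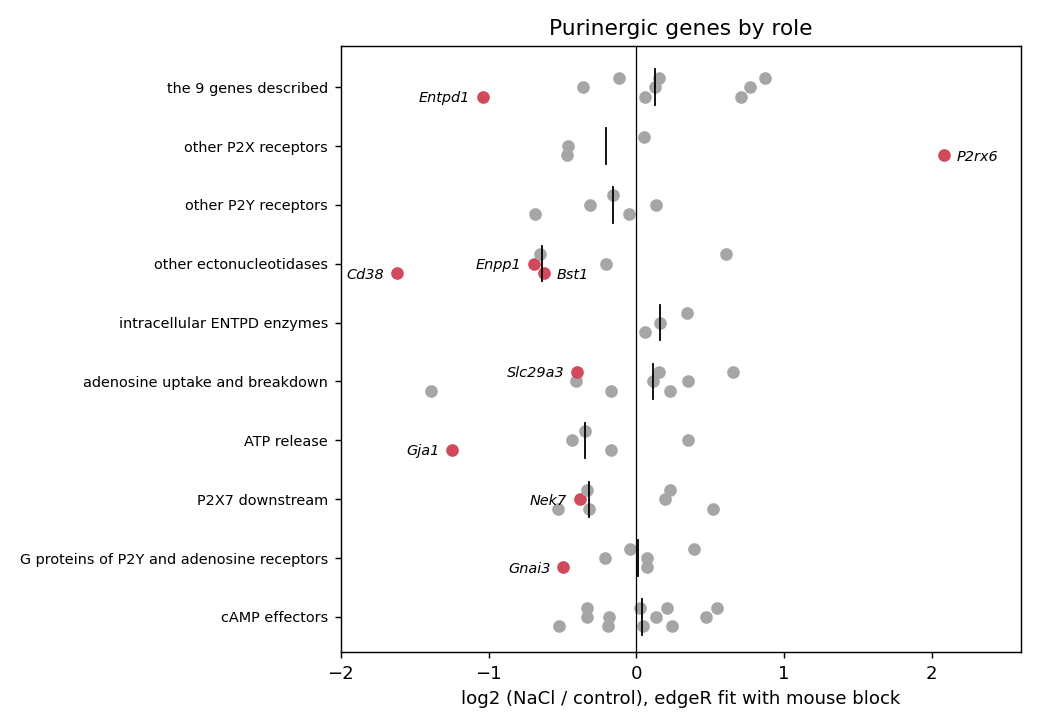
Log2 fold change of NaCl over control (x axis) from the edgeR fit with the mouse block, one point per gene, in rows by role, with named red points for genes with an adjusted p under 0.05 and black bars for the median of each row. *Entpd1* (-1.04) lies to the left in the row of the 9 genes described. *Enpp1* (-0.69), *Cd38* (-1.62) and *Bst1* (-0.63) lie to the left in the row of other ectoenzymes, and *P2rx6* (2.08) lies alone on the right.

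The genes whose log2 CPM followed each member most closely over the 6 libraries were also listed, among 9924 genes (9923 where the member was itself 1 of them) with a mean of at least 50 counts. These are descriptions over 6 points that share depth and mouse. *Entpd1* was followed most closely by *Ms4a7* (Pearson r = 0.998) and *Ppard* (r = 0.997), whose own log2 fold changes were -1.06 and -0.53. *P2ry12* was followed by *Cavin1* and *Rasa3* (r = 0.994 for each), *P2rx7* by *Ypel3* and *Cnn2*, and *P2rx4* by *Sh3gl1* and *Gapvd1*. *Adora2b* ran with *Naa40* and *Gcnt1*, *Adora3* with *Rab6b* and *Vezf1*, *P2ry2* with *Irf2bpl* and *Elmo2*, and *P2ry6* with *Gatd3a* and *Bola1*. *Adora2a* had a mean of under 10 counts and was left out.

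Among the macrophage markers, *Lyz2*, *Cd14* and *Csf1r* were higher in NaCl, and *Lyz2*, the most abundant of them, held 9219 to 10194 CPM in control and 16456 to 23249 CPM in NaCl. Among markers of other cell types, *Ngp* and *Mpo* (neutrophil) and *Prg2* (eosinophil) were lower, *Siglecf* (eosinophil) was higher, and 0 of 7 dendritic cell, 3 stromal and 2 endothelial markers tested passed. The part of these shifts in the fall of *Entpd1* was not tested. The markers *Adgre1*, *Cd68*, *Itgam* and *Fcgr1* did not pass the threshold, with log2 fold changes from -0.20 to 0.07.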

How the data were processed

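RNA of 6 BMDM libraries, 3 control and 3 NaCl from the same 3 mice, was measured. The authors sequenced single ends of 75 bases, used fastp 0.20.0 for trimming and STAR 2.7.10b for alignment, and deposited raw read counts per gene from an unstranded kit. They also deposited a normalized signal, in which the counts of the 15903 genes with a total of at least 10 were divided by DESeq2 1.40.2 size factors. All 95418 values of this signal, times 1 factor per library, equalled the raw counts within 1e-06, so the raw counts were tested. Since the methods pair mm10 with GENCODE vM32, a release made for a later build, genes are placed by chromosome, and promoters are those of RefSeq on GRCm38.p6 (7 of the 9 genes matched). Exon lengths and shared sequence came from GENCODE M21.

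Counts were fitted with edgeR 4.0.16 (TMM, glmQLFit, glmQLFTest) with mouse and treatment, in R 4.3.3. The authors' methods name no mouse term. The mouse was added because the labels give each animal in both groups and the comparison is paired by mouse. Deviations of same-mouse libraries from their group means correlated over genes (0.43, 0.15 and 0.22 for mice 1, 2 and 3, other pairs from -0.35 to 0.12). CPM used TMM-scaled library sizes, and within-mouse log2 ratios a prior count of 2. Standard errors were derived from the log2 fold change and its F statistic. Alternatives were DESeq2 1.42.0, limma-voom (limma 3.58.1), the likelihood ratio test, other scalings and filters, thinning to 4088065 counts, and leaving out mice or libraries. The test between mice was added after the data were seen. Named genes were the 9 members, the other pathway genes past the threshold or under the minimum count, and the 2 genes most correlated with each member of at least 10 counts on average. Further genes were named for their role. The members and lists were chosen with earlier results of these data known. Scripts were tested on simulated data. Some cell type markers are not reported here.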

Additional observations from a re-analysis of the deposited data

How the results depend on the processing

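The fall of *Entpd1* was past the threshold in all 11 alternatives that kept the replicate block and in 0 of the 8 with no replicate block. Its log2 fold change was -0.92 with no replicate block in edgeR (adjusted p = 0.473) and -0.92 in DESeq2 with no replicate block (adjusted p = 0.674), and -1.75 to -0.38 in the 6 fits with no replicate block that each left out 1 library. The highest of these was the one without control replicate 1 (adjusted p = 0.789) and the lowest the one without NaCl replicate 1 (adjusted p = 0.0614). Members lower were 0 with no replicate block in either tool, and 1 in each fit without a mouse and 0 in each fit without a library and with no replicate block. Members higher were 1 (*Adora2b*) in the likelihood ratio test (adjusted p = 0.0337), with a minimum total count of 1 (adjusted p = 0.0333) and without mouse 2, and 0 to 1 when a mouse or library was left out. *Adora2b* thus passed in 3 of 19 alternatives. With the block it did not pass in limma-voom (adjusted p = 0.0848), in DESeq2 (adjusted p = 0.279) or after thinning (adjusted p = 0.288). Nor did it pass with no replicate block in edgeR (adjusted p = 0.407).

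Other pathway genes lower were 7, against 0 with no replicate block, 2 in DESeq2 with the block, 1 in DESeq2 without it, 4 after thinning, 3 to 4 without a mouse and 0 without a library and with no replicate block. Other pathway genes higher were 1, against 0 with no replicate block and in DESeq2 with or without it, and 0 to 1 when a mouse or library was left out. Over all genes 732 were higher and 684 lower, against 76 and 28 with no replicate block, 452 and 354 in DESeq2 with the block, 245 and 155 in DESeq2 without it, and 543 and 409 after thinning. Leaving out a mouse with the block kept gave 469 to 758 higher and 417 to 661 lower genes. Leaving out a library with no replicate block, which changes both choices at once, gave 8 to 123 higher and 0 to 46 lower genes. Beyond the block, depth and sample number, the cause of these differences was not tested.

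Members that did not pass changed sign as follows. *P2rx7* was at -0.0064 after thinning. With the block kept, *P2rx7* (-0.0050) and *P2ry6* (-0.023) changed sign without mouse 2. *P2rx4*, *P2ry2* and *P2ry12* changed sign only in fits that left out a library and also had no replicate block. Over all fits without a mouse or library *P2rx7*, *P2ry2*, *P2ry6*, *P2rx4* and *P2ry12* lay within -0.15 to 0.27, -0.033 to 0.31, -0.025 to 0.30, -0.23 to 0.043 and -0.95 to 0.39 respectively. The scarce members are limited by depth, with 1 count of *Adora2a* and 5 of *P2ry12* in NaCl replicate 3.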

Other observations

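Among the other pathway genes the mouse term passed the threshold for 5 of 57 genes tested, a share near the 8.89% of all genes, so these values are no result about the pathway. Beside *P2ry14* these were *Enpp1*, lowest in mouse 1 within each condition (adjusted p = 0.0419), *Pde4b*, *Pde3b* and *Calhm6*. *Pde4b*, a phosphodiesterase that breaks down cAMP, held 13.4 and 14.4 CPM in the control and NaCl libraries of mouse 1 and 3.28 to 6.89 CPM in the other 4 (adjusted p = 2.8e-05). *Pde3b*, another such enzyme, held 42.9 and 34.1 CPM in mouse 1 and 16.5 to 24.5 CPM in the others (adjusted p = 9.4e-04). *Calhm6* held 3.98 and 2.68 CPM in mouse 1 and 0.906 to 1.54 CPM in the others (adjusted p = 0.0170). For these 3 genes, as for *Entpd1* and *P2ry12*, both libraries of mouse 1 were the highest of the 6.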
